A study of Ovis aries with 3 samples.

Results

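PTHLH is the gene for parathyroid hormone-related protein (PTHrP), and it was read as 1 of the 26247 genes listed for single cells of lamb rumen epithelium. The row carrying the symbol PTHLH (identifier ENSOARG00000019663) was present once in each of the 3 libraries. It was chosen for its pattern across the diets, so its levels by diet are a description and carry no test. The libraries came from the rumen epithelium of Hu sheep lambs at 42 days of age: 1 from lambs given milk with a concentrate starter (concentrate), 1 from lambs given milk with alfalfa hay (hay) and 1 from lambs given milk only. All 3 diets held milk, and the study asked how early concentrate feeding bears on keratinocyte differentiation in the rumen wall. The labels do not say how many animals gave each library. With 1 library per diet, diet and the particular animals or preparation cannot be told apart.

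PTHrP is a secreted peptide that shares its receptor-binding end with parathyroid hormone and acts through the receptor PTH1R, which couples mainly to Gs and raises cAMP. It was first known as the tumour product behind humoral hypercalcaemia, and human and mouse epidermal keratinocytes make it as a local signal. In mouse skin, altered PTHrP in keratinocytes changes hair and epidermal growth and differentiation, while in cartilage it holds back chondrocyte maturation. PTHrP is also known to take part in calcium transport by the sheep placenta and in lactation.

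The concentrate, hay and milk-only libraries held 9214, 9543 and 7032 barcodes, of which 4891, 7031 and 3850 passed the limits of at least 500 genes and under 20% mitochondrial UMIs. A UMI is a molecular tag counted once per captured transcript. Keratinocytes, the cells of the stratified lining, made up 4674, 6993 and 3401 of the kept cells, with 44433705, 45058138 and 46873244 UMIs in total. Their median depth differed, at 8283, 5897 and 11631 UMIs per cell in the concentrate, hay and milk-only libraries. KRT15, a basal keratin, stood at 7879, 6304 and 7989 CPM (UMIs of the gene scaled to a common total of UMIs), while KRT5 and KRT14 were not found by symbol. Pairs of libraries shared 2 to 8 barcodes among the kept cells.

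PTHLH was abundant in concentrate keratinocytes, lower in hay keratinocytes and lowest with milk only. In concentrate keratinocytes 3615 PTHLH UMIs were counted, or 81.4 CPM (exact Poisson 95% interval 78.7 to 84.1). Hay keratinocytes held 743 UMIs, or 16.5 CPM (15.3 to 17.7), and milk-only keratinocytes 171 UMIs, or 3.65 CPM (3.12 to 4.24). The 3 intervals did not overlap, but these intervals cover counting error only and say nothing of the spread between animals. The ratio was 22.3 for concentrate over milk only (exact conditional binomial 95% interval 19.1 to 26.2), 4.93 for concentrate over hay (4.56 to 5.35) and 4.52 for hay over milk only (3.82 to 5.37). On the log2 scale these differences were 4.48, 2.30 and 2.18.

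Few genes differed as far between the diets. Among the 4754 genes with at least 10 CPM over the keratinocytes of at least 1 library, 2.65% were at least 2-fold higher in concentrate than with milk only, 3.77% higher in concentrate than in hay, and 1.81% higher in hay than with milk only. These shares are the background for PTHLH, which lay past 2-fold in all 3 comparisons by the choice of the gene. By size of ratio PTHLH ranked 6th for concentrate over milk only, 28th for concentrate over hay and 15th for hay over milk only. Over all measured genes the median log2 ratio was 0.04, 0.19 and -0.16 in the same order of comparisons. A scaling that sets these medians near 0 left PTHLH at 4.44, 2.11 and 2.34. That scaling moved the share of higher genes among those past 2-fold to 72.1% for concentrate over hay, against 86.1% with CPM.

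Genes with a symbol above PTHLH in concentrate over milk only were CDH7, a cadherin, DAB2, an endocytic adaptor, and EFHB. They are named because they ranked above it. DAB2 had 17.9 CPM in concentrate, 9.39 CPM in hay and 0.469 CPM in milk-only keratinocytes, the same order of libraries as PTHLH. EFHB did not follow that order, with 12.1 CPM in concentrate, 15.1 CPM in hay and 0.469 CPM with milk only. CDH7 had 22.1 CPM in concentrate, 2.20 CPM in hay and 0 UMIs with milk only.

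**Figure D1:**
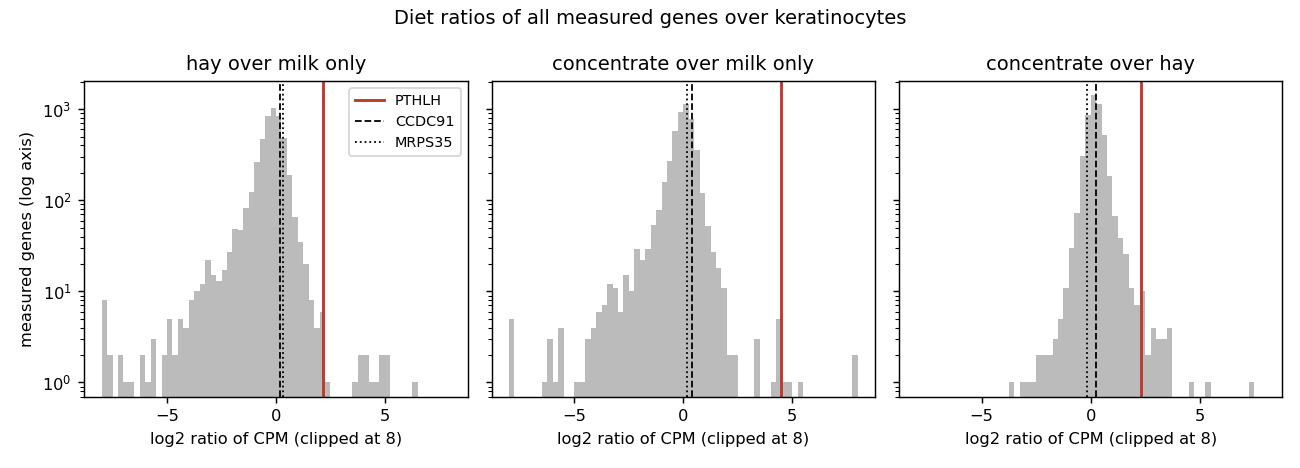
Histograms of the log2 ratio of CPM over keratinocytes for the 4754 measured genes, 1 panel per comparison of diets, with the number of genes on a log axis and ratios beyond 8 drawn at 8. The solid line is PTHLH at 2.18 (hay over milk only), 4.48 (concentrate over milk only) and 2.30 (concentrate over hay); the dashed line is its neighbour CCDC91 and the dotted line MRPS35, both at most 0.40 from 0 in every panel.

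The genes beside PTHLH on the chromosome did not share its differences. Gene order was taken from the RefSeq table of assembly ARS-UI_Ramb_v3.0 by symbol, and the build of the deposited counts is not given in the sources used here. CCDC91, on one side, had 70.5 CPM in concentrate, 59.9 CPM in hay and 53.4 CPM in milk-only keratinocytes, a log2 ratio of 0.40 for concentrate over milk only. KLHL42, on the other side, stood at 2.81, 1.80 and 2.13 CPM in the concentrate, hay and milk-only libraries. MRPS35, a mitochondrial ribosomal protein gene, had 61.5, 68.1 and 54.1 CPM and ERGIC2, a secretory pathway gene, 63.3, 59.3 and 50.7 CPM in the same libraries.

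More cells held PTHLH with concentrate, and a minority of them held several UMIs. At least 1 PTHLH UMI was found in 1502 of 4674 concentrate keratinocytes, or 32.1% (exact Clopper-Pearson 95% interval 30.8 to 33.5). The share was 8.69% in hay (608 of 6993 cells, 8.04 to 9.38) and 4.0% with milk only (136 of 3401 cells, 3.37 to 4.71). These shares go with depth, which was highest in the milk-only library, so cells were also thinned to 5000 UMIs. At that depth PTHLH was found in 24.2% of concentrate cells (22.8 to 25.6), 7.64% of hay cells (6.90 to 8.43) and 1.81% of milk-only cells (1.34 to 2.38). Thinning left out 827 concentrate, 2216 hay and 691 milk-only cells that were shallower. The order of the libraries was the same with and without thinning.

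Free RNA in droplets can place a UMI in a cell that does not express the gene. In cells of other types, which were T or NK-like, macrophage or dendritic-like, fibroblast-like and endothelial-like, PTHLH was found in 3 of 217 concentrate cells (1.38%), 2 of 38 hay cells and 3 of 449 milk-only cells (0.668%). Those cells had medians of 2734, 3640.5 and 5938 UMIs, below the keratinocytes of the same libraries. Thinned to 2000 UMIs, the share was 10.8% of keratinocytes and 0.633% of other cells with concentrate (0.0160 to 3.48), and 0.660% of keratinocytes (0.409 to 1.01) and 0 of 434 other cells with milk only. The milk-only keratinocyte share lay within the interval that 0 of 434 cells allows, which reached 0.846%. The hay interval was too wide to compare, at 0.644 to 17.8% of 38 cells. By summed UMIs, which use all the depth, the level was 3.65 CPM (3.12 to 4.24) in keratinocytes and 0.781 CPM (0.161 to 2.28) in other cells with milk only, and 81.4 against 4.20 CPM (0.865 to 12.3) with concentrate. With hay it was 16.5 CPM (15.3 to 17.7) in keratinocytes and 12.2 CPM (1.48 to 44.1) in other cells, on 2 UMIs, so no difference from other cells was detectable in that library.

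Within the positive cells the UMIs were unevenly spread. Exactly 1 UMI was found in 815 of the 1502 positive concentrate cells, 511 of the 608 positive hay cells and 122 of the 136 positive milk-only cells. Positive cells held a mean of 2.41 PTHLH UMIs with concentrate, 1.22 with hay and 1.26 with milk only, and the highest cell held 25, 7 and 19. In concentrate 183 cells (3.92%) had 5 or more UMIs and together held 41.0% of all PTHLH UMIs, and 50 cells had 10 or more. Hay had 5 cells with 5 or more UMIs and milk only 2. In the milk-only library 1 cycling cell with 19 PTHLH UMIs and 27755 UMIs in all held 11.1% of that library's keratinocyte PTHLH, and without it the level was 3.25 CPM. The variance over the mean of the per-cell counts, which is 1 for evenly spread molecules at equal depth, was 1.93 with concentrate, 1.30 with hay and 1.10 with milk only at 5000 UMIs. For the same relative spread between cells this value grows with the mean count. The means were 0.381, 0.0885 and 0.0192 UMIs per cell, so the values do not rank the libraries by unevenness.

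**Figure D2:**
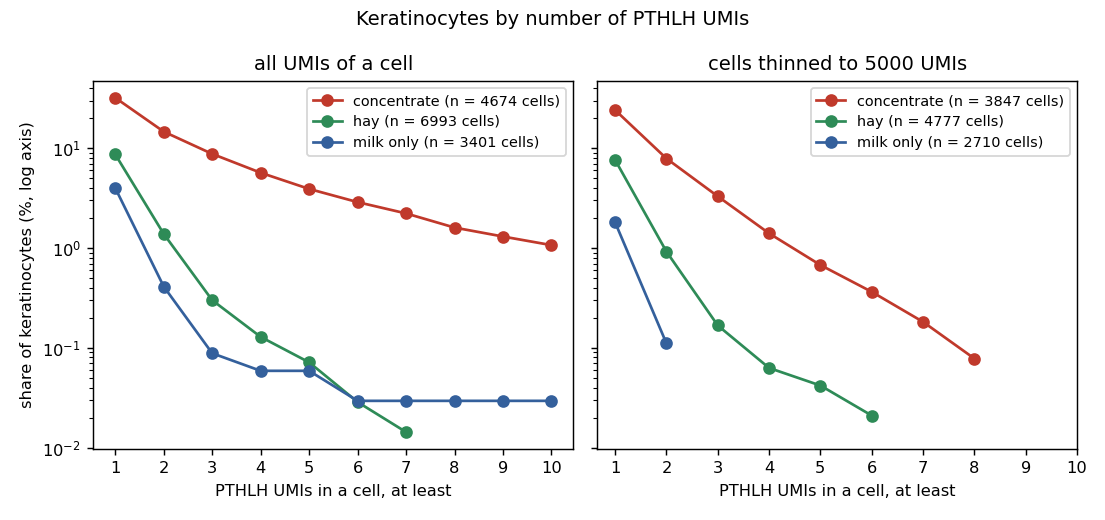
Share of keratinocytes (log axis, percent) with at least the number of PTHLH UMIs on the x axis, for all UMIs of each cell on the left and for cells thinned to 5000 UMIs on the right, 1 line per library. The concentrate line starts at 32.1% and reaches 10 UMIs in 1.07% of cells; hay starts at 8.69% and milk only at 4.0%, and the right tail of the milk-only line is a single cell.

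PTHLH was present in cycling-like cells and in the other keratinocytes outside the differentiated clusters, and low or undetected in differentiated cells. No cluster was named basal. Clusters were made without PTHLH, which was not among the 2000 variable genes used. In cycling-like cells PTHLH stood at 104 CPM with concentrate (977 cells), 21.0 CPM with hay (957 cells) and 6.72 CPM with milk only (351 cells). In the remaining keratinocytes outside the differentiated clusters it stood at 76.0, 15.6 and 3.92 CPM. Cycling cells were thus 1.37, 1.34 and 1.72 times the other keratinocytes, and without the highest cycling cell the milk-only level was 4.28 CPM and its ratio 1.09 (0.719 to 1.62). Differentiated keratinocyte-like cells held 12 UMIs in 91 concentrate cells (7.30 CPM, 3.77 to 12.7). They held 0 in 53 hay cells, where 3 counts would be 6.63 CPM, and 0 in 814 milk-only cells, where 3 counts would be 0.341 CPM. A level like that of the other milk-only keratinocytes would have been seen at that depth.

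Because 814 of the 3401 milk-only keratinocytes were differentiated, the diets were also compared within a class. Cluster 2, a cycling cluster led by mitotic genes such as ASPM, was the 1 cluster with over 50 cells in all 3 libraries. There PTHLH stood at 101, 21.1 and 6.72 CPM in the concentrate, hay and milk-only libraries. The ratio was 15 for concentrate over milk only (11.3 to 20.2), 4.78 for concentrate over hay (4.07 to 5.65) and 3.13 for hay over milk only (2.29 to 4.35). The milk-only value rests on 52 UMIs, of which 19 were in 1 cell. Without the highest cell of each library in this cluster, the milk-only level was 4.28 CPM and the ratios were 23.0 (16.3 to 33.7), 4.82 (4.09 to 5.71) and 4.78 (3.28 to 7.17) in the same order. Clusters mainly of 1 library may reflect that library as well as a cell state.

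Within the concentrate library the levels followed the cell clusters. Cluster 11, cycling cells led by S-phase genes such as RRM2, had the highest level at 113 CPM, followed by cluster 2 at 101 CPM, and their ratio of 1.12 (0.990 to 1.26) did not exclude equal levels. Cluster 1, the THEM5 and FABP4 keratinocytes, stood at 82.3 CPM and cluster 4, led by the heat shock gene HSPA6, at 79.1 CPM, without a separable difference (ratio 1.04, 0.788 to 1.40). Cluster 5, with the secreted factors CCDC80 and FST, stood at 64.7 CPM, below cluster 1 (ratio 1.27 for cluster 1 over it, 1.14 to 1.42). Cluster 0 stood at 49.3 CPM, cluster 9 at 28.2 CPM and cluster 3 at 10.8 CPM. Cluster 13, with the spinous keratin KRT10, was lowest at 7.85 CPM. PTHLH itself was among the 10 leading genes of cluster 1 by fold over all other cells. That cluster held 2152 concentrate, 10 hay and 3 milk-only cells, so the fold carries the pattern across diets by which PTHLH was chosen. Inside the concentrate library its 82.3 CPM was close to the 81.4 CPM of all keratinocytes.

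In hay the highest level was in cluster 4 at 28.4 CPM, above cluster 2 at 21.1 CPM (ratio 1.35, 1.10 to 1.66). Cluster 0, which held 2432 hay cells, stood at 17.1 CPM, and cluster 3, led by FBP1 and the retinoic acid hydroxylase CYP26A1, at 6.78 CPM (ratio of 2.52 for cluster 0 over it, 1.96 to 3.28). With milk only, cluster 2 stood at 6.72 CPM, cluster 7 (RCAN1 and the collagenase MMP13) at 4.61 CPM and cluster 6 (GPNMB and FMO2) at 3.34 CPM, and neighbours in this order did not differ beyond counting error. The differentiated cluster 8 (CNFN) had no PTHLH UMI.

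In every cluster with at least 50 cells of both feeds, the concentrate level was above the hay level. The ratio was 2.88 in cluster 0 (1.95 to 4.13), 2.79 in cluster 4 (2.01 to 3.8), 4.97 in cluster 5 (2.59 to 11) and 12 in cluster 9 (2.40 to 116), the last on 8 concentrate and 2 hay UMIs. In cluster 3 it was 1.59 on 5 concentrate UMIs, with an interval (0.504 to 3.87) that included 1.

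**Figure D3:**
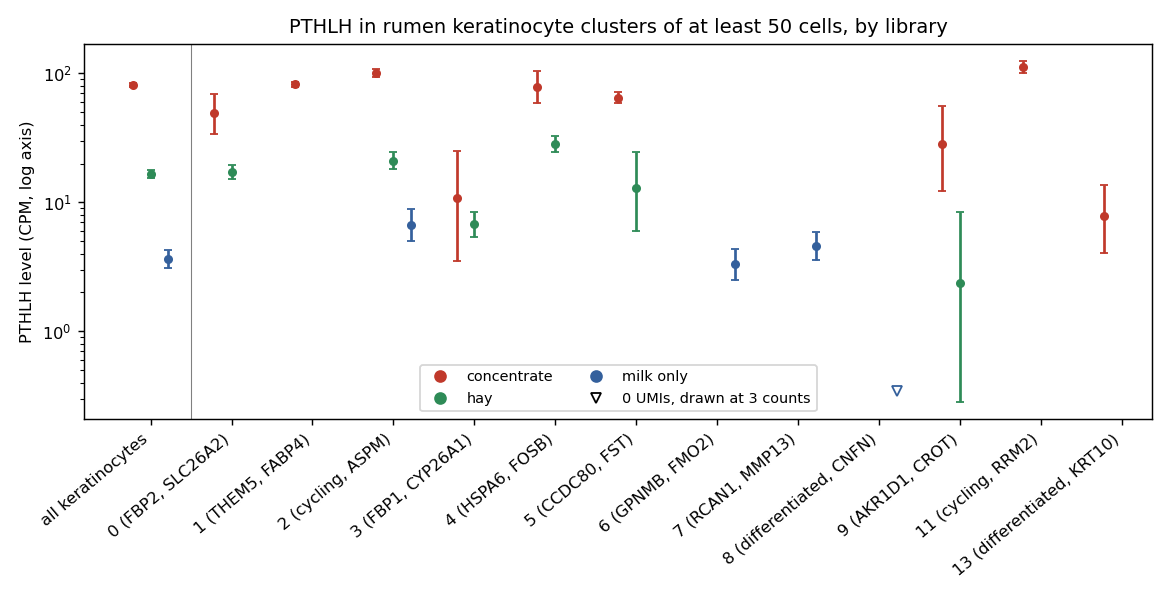
PTHLH level (CPM, log axis) over all keratinocytes and in each keratinocyte cluster with at least 50 cells of a library, in the order concentrate, hay, milk only; points are sums over cells, bars exact Poisson 95% intervals and open triangles groups with 0 UMIs drawn at 3 counts. Concentrate points lie above hay points in all shared clusters, and the differentiated clusters 8 and 13 hold the lowest values of their libraries.

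Of the PTH family ligands PTHLH was the 1 with counts, and of the 3 genes listed 2 were found by symbol. PTH, the hormone of the parathyroid gland, and the receptor PTH2R had 0 UMIs in every cell class of the 3 libraries. PTH1R, the receptor that PTHrP uses, had 3 UMIs over all keratinocytes, 1 in the concentrate library and 2 in the hay library. Over the concentrate keratinocytes outside the cycling and differentiated clusters 3 counts would be 0.0995 CPM, so a level above that would have been seen. PTH1R was also counted in cells other than keratinocytes. The 59 fibroblast-like concentrate cells held 4 UMIs (20.5 CPM, 5.58 to 52.5), and the 334 T or NK-like milk-only cells held 17 (7.93 CPM, 4.62 to 12.7). Macrophage or dendritic-like cells held 1 UMI with concentrate, 1 with hay and 4 with milk only (2.39 CPM, 0.652 to 6.13, with milk only). Fibroblast-like and endothelial-like cells were a class of at least 50 cells in the concentrate library only, so PTH1R in such cells could not be compared between diets. RAMP2, a receptor partner protein that can associate with PTH1R, stood at 745 CPM in endothelial-like and 61.5 CPM in fibroblast-like concentrate cells.

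Few genes for making and answering PTHrP could be measured. Of 8 proprotein convertase genes, which cut peptide precursors, 1 was measured over keratinocytes: PCSK7 had 14, 12.2 and 15.7 CPM with concentrate, hay and milk only. Of 18 G protein and cAMP genes 6 were measured, and 0 were at least 2-fold higher in concentrate or hay than with milk only. Among all measured genes 2.65% and 1.81% were, so a count of 0 among 6 does not set the list apart. GNAS, the Gs alpha subunit, had 1210, 1084 and 1090 CPM in concentrate, hay and milk-only keratinocytes. PDE4B, a cAMP phosphodiesterase, was at 0.203, 0.0666 and 15.3 CPM. Of 10 hedgehog pathway genes 0 were measured, and of 17 calcium and vitamin D genes 3 were measured, 0 of them past 2-fold, too few to read against those shares.

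Genes of pathways known to act on PTHLH in human or mouse cells were also counted. Of 10 EGF receptor ligand and receptor genes 3 were measured, and against milk only 1 was at least 2-fold lower with concentrate and 2 with hay. AREG, an EGF receptor ligand, had 28.6 CPM with concentrate, 27.2 CPM with hay and 123 CPM with milk only, and HBEGF had 25.3 CPM with hay and 59.0 CPM with milk only. Of 5 measured MAP kinase and ETS factor genes 4 were at least 2-fold lower than with milk only under both feeds, among them ETS2, a transcription factor, at 30.2 CPM with concentrate, 31.3 CPM with hay and 205.7 CPM with milk only. Over all measured genes 0.61% were at least 2-fold lower in concentrate than in hay, and 6.35% were at least 2-fold lower in concentrate and 9.7% in hay than with milk only. The list of TGF-beta ligands, receptors and mediators had 4 measured members, TGFB1, SMAD2, SMAD4 and SKIL, so 1 ligand and no receptor. SKIL, a repressor of the pathway, was lower under both feeds, at 12.8 CPM with concentrate, 13.1 CPM with hay and 27.3 CPM with milk only. TGFB1 stood at 14.2, 16.7 and 21.8 CPM. Of 8 measured YAP and TAZ response genes 0 were at least 2-fold higher with either feed than with milk only, and 1 was higher with concentrate than with hay. That gene was AMOTL1, a YAP-binding angiomotin family member, at 28.1 CPM with concentrate, 13.3 CPM with hay and 17.4 CPM with milk only. Over all measured genes 2.65% were at least 2-fold higher with concentrate and 1.81% with hay than with milk only. For concentrate over hay the share was 3.77%, so counts of 0 and 1 among 8 genes do not set the list apart.

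Genes that PTHrP acts on in bone and matrix, and genes of keratinocyte state, gave mixed counts. MMP9, a gelatinase, had 12.5 CPM with concentrate and 13.5 CPM with hay, against 3.37 CPM with milk only, while MMP13, a collagenase, had 0.383, 0.133 and 17.8 CPM. Of 9 measured basal keratinocyte genes 0 were at least 2-fold higher and 1 was lower than with milk only under each feed. Of 7 measured granular or cornified genes 6 were lower under each feed than with milk only, with median log2 ratios of -2.91 for concentrate and -3.52 for hay. Of 12 measured immediate early genes, 10 were lower with concentrate and 9 with hay than with milk only. Over all measured genes 6.35% were at least 2-fold lower with concentrate and 9.7% with hay than with milk only. At least 2-fold higher were 2.65% with concentrate and 1.81% with hay.

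Cells with a PTHLH UMI were next set against cells without one inside each library. Positive cells were deeper, with medians of 10718 against 7372 UMIs in concentrate, 6838 against 5798 in hay and 17135.5 against 11464 with milk only, so negative cells were weighted to the depth of the positive cells. Cycling-like cells made up 28.5% of positive and 17.3% of negative cells in concentrate, 21.5% and 12.9% in hay, and 20.6% and 9.89% with milk only. Differentiated cells made up 0.533% of positive and 2.62% of negative cells in concentrate, 0 and 0.830% in hay, and 0 and 24.9% with milk only. Ratios weighted by both depth and cluster are therefore also given. The cells of a library are not replicates, and all intervals on these ratios are approximate 95% Poisson intervals for counting error.

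At least 1.5-fold higher in positive cells were 0.991% of the genes in concentrate (31 of 3128), 1.82% in hay (53 of 2915) and 9.5% with milk only (318 of 3349), among genes with 20 CPM in positive or negative cells. At least 1.5-fold lower were 1.98% in concentrate, 1.48% in hay and 4.36% with milk only. The positive cells numbered 1502, 608 and 136, with 18086185, 4644277 and 2716466 UMIs outside PTHLH. Counting error thus differed between libraries, and these shares do not rank them. Of 1055 genes with at least 50 CPM in all 3 libraries, 564 were higher in the positive cells of all 3 and 189 lower in all 3. None of these 1055 genes was 1.5-fold higher in all 3, 58 were 1.2-fold higher in all 3, and 11 were 1.5-fold lower in all 3.

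SERPINE2, a secreted inhibitor of serine proteases such as thrombin and urokinase, had the highest ratio in each library among the named genes with at least 20 CPM in positive or negative cells. It had 37.0 CPM in positive against 9.96 CPM in weighted negative concentrate cells, a ratio of 3.72 (3.18 to 4.35). In hay it had 23.0 against 9.03 CPM (ratio 2.55, 2.05 to 3.17), and with milk only 113.8 against 27.5 CPM (ratio 4.13, 3.64 to 4.69). With cluster in the weighting the ratios were 2.95, 2.02 and 3.03. At 5000 UMIs SERPINE2 was found in 12.2% of positive and 5.97% of negative concentrate cells, 8.77% and 4.58% in hay, and 22.4% and 11% with milk only. In the milk-only library 1 positive cell held 18.8% of the 309 SERPINE2 UMIs of positive cells, and without it the ratio was 3.41. SERPINE2 did not follow PTHLH across the diets: over all keratinocytes it had 22.7 CPM with concentrate, 10.9 CPM with hay and 32.1 CPM with milk only.

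Several other genes named by their ratios were also higher in positive cells. ODC1, the rate-limiting enzyme of polyamine synthesis, had ratios of 2.23 in concentrate (1.92 to 2.58), 1.39 in hay and 2.58 with milk only. In the milk-only library, however, ODC1 was found in 10.2% of positive and 10.2% of negative cells at 5000 UMIs, on 49 positive cells. FST, which binds and inactivates activins, had ratios of 2.34 (2.03 to 2.71), 2.17 (1.66 to 2.83) and 2.02 (1.58 to 2.58), and 1.84, 1.63 and 1.37 with cluster in the weighting. IGFBP6, an IGF-binding protein that prefers IGF-II, had 1.56, 1.83 and 1.40. With milk only, IGFL1, a secreted IGF-like family member, and TNFRSF6B, a soluble decoy receptor for Fas ligand, had ratios of 3.86 (3.25 to 4.59) and 2.73 (2.39 to 3.13). These 2 genes did not behave alike in the other libraries: IGFL1 had 1.40 in concentrate and 0.718 (0.221 to 2.33) in hay, and TNFRSF6B had 0.405 (0.352 to 0.465) in concentrate and 1.21 (0.735 to 2.01) in hay. With cluster in the weighting TNFRSF6B stood at 1.01 in concentrate. MYC had 1.76 in concentrate, 1.54 in hay and 1.36 with milk only, and 1.64, 1.39 and 1.01 with cluster in the weighting.

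ESD, an esterase that takes part in formaldehyde detoxification, followed PTHLH most in the concentrate library. It had 443.7 CPM in positive and 231.5 CPM in weighted negative concentrate cells, a ratio of 1.92 (1.84 to 1.99). The ratio was 1.34 in hay (1.26 to 1.43) and 1.15 with milk only (1.08 to 1.23). At 5000 UMIs ESD was found in 72.8% of positive and 55.8% of negative concentrate cells, but in 67.3% of positive and 69.1% of negative milk-only cells.

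Of the basal keratinocyte genes that could be read, 0 of 6 in concentrate, 0 of 6 in hay and 2 of 8 with milk only were at least 1.5-fold higher in positive cells. The shares over all genes read were 0.991%, 1.82% and 9.5%, so these counts do not set the list apart. The beta-1 integrin ITGB1 had ratios of 1.33 in concentrate, 1.28 in hay and 1.59 with milk only, and the hemidesmosome integrin ITGA6 had 1.22, 1.18 and 1.49. The laminin-332 chain LAMA3 had 1.10 (1.01 to 1.21), 0.946 (0.805 to 1.11) and 1.37, and its partner chain LAMB3 had 0.989, 0.813 and 1.59. The basal keratin KRT15 was near 1, with 0.984, 1.21 and 1.0. Outside that list, ITGA2, the collagen-binding alpha-2 integrin, had 1.48, 1.33 and 1.87.

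Of the cell cycle genes read, 1 of 6 in concentrate, 2 of 7 in hay and 3 of 8 with milk only were at least 1.5-fold higher in positive cells, and 0 were 1.5-fold lower. The shares over all genes read were 0.991%, 1.82% and 9.5% higher, and 1.98%, 1.48% and 4.36% lower. RRM2, a subunit of ribonucleotide reductase, had ratios of 1.53 in concentrate (1.38 to 1.69), 1.82 in hay (1.53 to 2.16) and 2.11 with milk only (1.77 to 2.51). CDT1, a replication licensing factor, had 1.46, 1.54 and 1.99, and PCNA, the replication clamp, had 1.29, 1.51 and 1.72. MCM5, a subunit of the replicative helicase, had 1.12 (0.944 to 1.32), 1.40 and 1.77. TOP2A, the topoisomerase of late S phase and mitosis, had 1.05, 1.11 (1.03 to 1.2) and 0.965, and CENPF, a kinetochore protein, had 1.02, 1.11 (1.04 to 1.19) and 0.684. NUSAP1, a spindle protein, had 0.979, 1.21 (1.06 to 1.38) and 1.16 (1.02 to 1.33), and CDK1, the mitotic kinase, had 1.21, 1.28 and 0.985. With cluster in the weighting RRM2 had 1.25, 1.52 and 1.51, whereas TOP2A had 0.897, 0.879 and 0.634 and CENPF had 0.847, 0.874 and 0.451. In a finer clustering PTHLH stood at 129 CPM in an S-phase cluster of concentrate cells. An S-phase cluster of 725 hay cells stood at 19.1 CPM (15.6 to 23.1). A hay cluster outside the cycling class, led by HSPA6, stood higher at 27.7 CPM (23.9 to 31.9). In the same clustering a mitotic cluster had 92.9 CPM in concentrate, 15.2 CPM in hay and 1.09 CPM in milk-only cells, and a histone-rich cluster 75.3, 29.1 and 9.79 CPM. The milk-only value of the histone-rich cluster was 6.03 CPM without its highest cell, which held 19 of 49 UMIs.

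Of the immediate early genes read, 1 of 7 in concentrate, 6 of 8 in hay and 8 of 11 with milk only were at least 1.5-fold higher in positive cells. The shares over all genes read were 0.991%, 1.82% and 9.5%. FOS had ratios of 1.39 in concentrate, 1.65 in hay and 1.64 with milk only, and 1.07, 1.11 and 1.15 with cluster in the weighting. JUN had 1.24, 1.64 and 1.5, and 1.03, 1.16 and 1.04 with cluster in the weighting. KLF4 stood at 0.738 (0.643 to 0.848) in concentrate but at 1.39 in hay and 1.32 with milk only. Of the EGF receptor ligands, AREG had 1.54, 1.68 and 1.94, and 1.76, 1.21 and 1.22 with cluster in the weighting. HBEGF had 2.03 (1.80 to 2.29) with milk only, and stood at 0.888 in concentrate and 0.962 in hay.

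Most genes of terminal differentiation were low in positive cells of every library when depth alone was weighted. Of the granular or cornified genes read, 5 of 6 in concentrate, 4 of 5 in hay and 6 of 7 with milk only were at least 1.5-fold lower. The exception was CST6, a cysteine protease inhibitor, with ratios of 1.17, 1.08 and 1.19. Over all genes read, 1.98% in concentrate, 1.48% in hay and 4.36% with milk only were at least 1.5-fold lower. SPINK5, a protease inhibitor of the upper epidermal layers, had 50.9 CPM in positive and 608.3 CPM in weighted negative concentrate cells (ratio 0.0836, 0.0781 to 0.0896). Its ratio was 0.236 in hay and 0.114 with milk only. KRTDAP, a differentiation-associated secreted peptide, had ratios of 0.0761, 0.238 and 0.0687, and the keratin KRT36 had 0.0444, 0.165 and 0.0394. With cluster in the weighting SPINK5 stood at 0.446, 0.788 and 0.421, KRTDAP at 0.506, 0.889 and 0.762 and KRT36 at 0.484, 0.806 and 0.696. In the milk-only library other members turned above 1 within clusters. A2ML1, a protease inhibitor, had 0.0564 by depth and 1.39 (1.03 to 1.87) by depth and cluster. CNFN, a cornified envelope protein, had 0.0763 and 2.23 (1.30 to 3.83). TGM1, a cross-linking enzyme of the envelope, had 0.234 and 1.32 (0.960 to 1.80), an interval that included 1. By depth and cluster TGM1 stood at 0.693 (0.512 to 0.938) in concentrate and 0.560 (0.203 to 1.55) in hay. The low levels of these 3 genes in milk-only positive cells were thus not seen within clusters. GJA1, the gap junction protein connexin 43, was also lower, with ratios of 0.547, 0.344 and 0.244, and 0.636, 0.608 and 0.546 with cluster in the weighting.

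**Figure D4:**
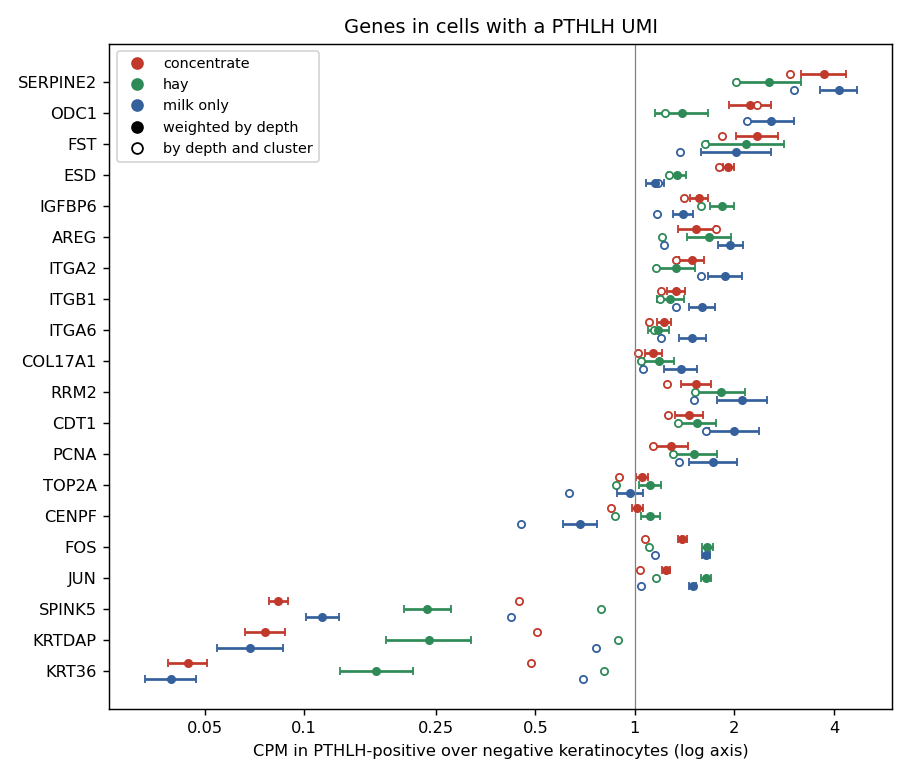
Ratio of CPM in PTHLH-positive over PTHLH-negative keratinocytes (log axis) for 20 genes in the concentrate, hay and milk-only libraries; filled points weight negative cells by depth, with approximate 95% counting intervals, and open points weight them by depth and cluster. SERPINE2 lies right of 1 in all 3 libraries by both weightings (2.02 to 4.13), the replication genes RRM2, CDT1 and PCNA lie right of 1, and SPINK5, KRTDAP and KRT36 lie left of 1, closer to it for the open points.

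Genes that differed in the positive cells of one library mostly lay in the same direction in the others, though many fell short of 1.5-fold there. These counts use ratios weighted by depth alone, so they do not set aside the cycling and differentiated clusters. Of the 25 genes with a symbol that were at least 1.5-fold higher in concentrate positives, 16 could be read in hay and 17 with milk only. All 16 were higher in hay positives, 6 of them past 1.5-fold, and all 17 were higher in milk-only positives, 9 past 1.5-fold. Among all genes read, 68.9% were higher in hay positives and 72.6% in milk-only positives. Of the 41 such genes from hay, all 33 read in concentrate and all 36 read with milk only were higher, 6 and 23 of them past 1.5-fold. Among all genes read in concentrate 68.9% were higher. Of the 271 from milk only, 175 of 186 were higher in concentrate and 172 of 180 in hay, but 9 and 23 passed 1.5-fold. Of the 44 genes lower in concentrate positives, 30 of 32 were lower in hay and 37 of 40 with milk only. Among all genes read 31.1% were lower in hay positives and 27.4% in milk-only positives.

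In the concentrate library the levels of some of these genes, but not all, also went with the number of PTHLH UMIs. At 5000 UMIs, 2917 concentrate cells had 0 PTHLH UMIs, 626 had 1, 177 had 2 and 127 had 3 or more. The median full depth of these cells was 8961, 9606, 11080 and 12457 UMIs. Cycling-like cells made up 23.6%, 27.8%, 23.7% and 31.5%, so they were not matched for depth or class. ODC1 stood at 17.4, 26.8, 47.9 and 81.2 CPM in these cells, in order of increasing PTHLH. ESD stood at 256.9, 360.0, 589.2 and 766.1 CPM, and IGFBP6 at 97.8, 129, 151 and 194 CPM. SERPINE2 stood at 14.6, 24.9, 76.7 and 75.2 CPM, so that its last 2 values did not differ beyond counting error. AREG stood at 25.4, 28.9, 48.9 and 79.4 CPM. SPINK5 ran the other way, at 275.1, 18.2, 6.23 and 7.88 CPM, and its last 2 values did not differ beyond counting error. Differentiated cells, 2.62% of negative and 0.533% of positive concentrate cells at full depth, were not set aside here. The SPINK5 ratio in positive cells was 0.0836 by depth and 0.446 by depth and cluster. KRT15 stood at 7927, 7547, 6991 and 6716 CPM.

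**Figure D5:**
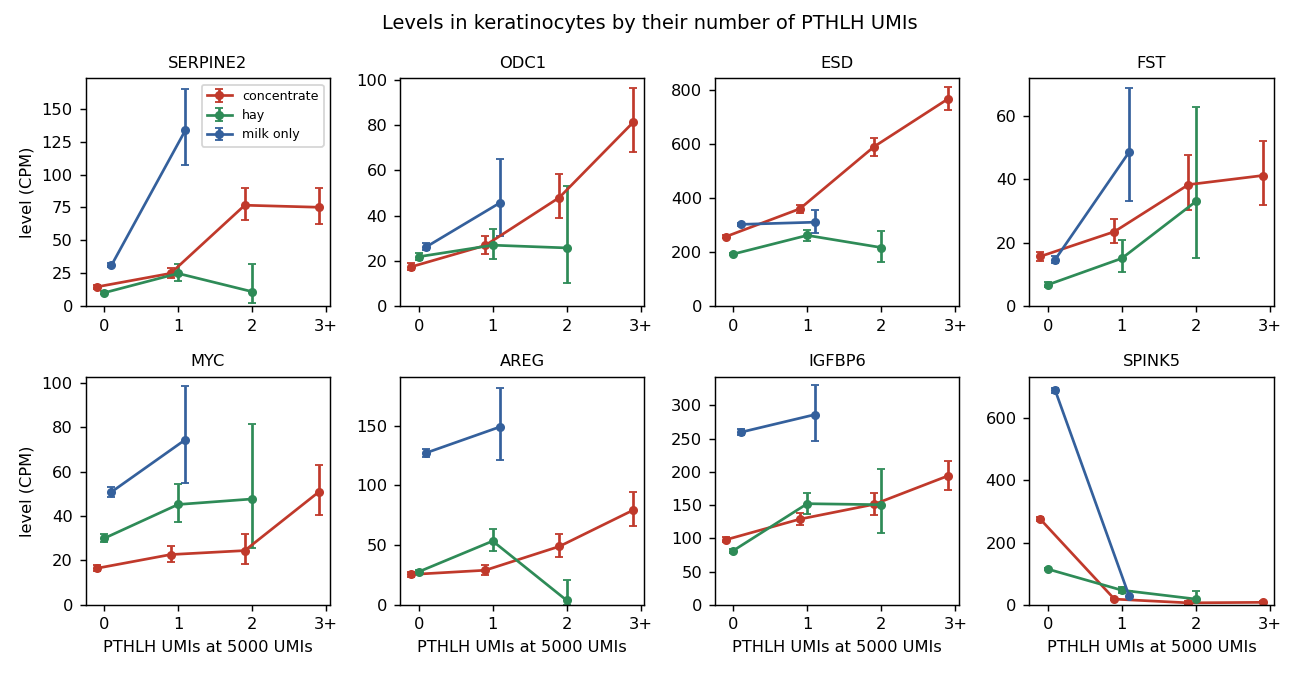
Level (CPM) of 8 genes in keratinocytes grouped by their number of PTHLH UMIs at 5000 UMIs per cell, 1 line per library with exact Poisson 95% intervals. In concentrate cells ODC1 runs 17.4, 26.8, 47.9 and 81.2 CPM from 0 to 3 or more PTHLH UMIs while SPINK5 drops to 18.2 CPM at 1 UMI, against 275.1 CPM at 0.

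Across single cells the correlations with PTHLH were weak, as is usual for sparse counts, and are given as a description of 4674 concentrate, 6993 hay and 3401 milk-only cells that share depth within a library. The genes most like PTHLH by the mean Pearson r of the 3 libraries on log-normalised counts were HSP90AB1, a chaperone (0.23 in concentrate, 0.08 in hay and 0.12 with milk only), ESD (0.30, 0.08 and 0.03) and SERPINE2 (0.19, 0.07 and 0.14). Across 19 sums of UMIs by cluster and library, the genes most like it by Pearson r of log2 CPM were SEPT6, a septin (r = 0.91), SF3B2, a splicing factor (0.87), and AGPS, an enzyme of ether lipid synthesis (0.86). These points share libraries and clusters and are not independent. They also pool the 3 libraries, so r carries the pattern across diets by which PTHLH was chosen. SEPT6 had 12.2 CPM in concentrate, 2.09 CPM in hay and 1.09 CPM in milk-only keratinocytes. Its ratio in positive cells was 1.44 in concentrate, 0.811 in hay (8 UMIs) and 0.635 with milk only (2 UMIs). Within libraries its r was 0.85, 0.67 and 0.97, on 9, 6 and 4 points. SEPT6 was low there, at 0.838 to 3.16 CPM over the hay points and 0.228 to 1.42 CPM over the milk-only points. The milk-only points include the differentiated cluster 8 with no PTHLH UMI, and SF3B2 had an r of 0.98 on them.

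Markers of other cell types were counted in the keratinocytes, and 2 of the lists ran in the order of PTHLH. The 9 smooth muscle or pericyte markers summed to 21.5 CPM in concentrate, 17.9 CPM in hay and 9.07 CPM in milk-only keratinocytes, with RGS5 at 0 in all 3. The main member was the kinase MYLK at 17.5, 16.2 and 5.76 CPM. That sum was also higher in PTHLH-positive than in negative cells, at 26.9 against 17.8 CPM in concentrate and 26.7 against 16.9 CPM in hay, without weighting by depth. The 7 B or plasma cell markers with a symbol summed to 2.54, 1.66 and 1.62 CPM, with MS4A1 and CD79B at 0 in all 3. The 11 T or NK markers summed to 0.225, 0.710 and 3.56 CPM, with CD3D and PRF1 at 0 in all 3. The 14 macrophage or dendritic markers summed to 1.44, 1.31 and 8.58 CPM, with CD163 and LYZ at 0 in all 3. The 11 fibroblast markers summed to 28.4, 4.33 and 169 CPM, with LUM, PDGFRB and DPT at 0 in all 3, and the main member DCN stood at 23.6, 2.91 and 166.6 CPM. DCN was higher in the positive cells by the depth-weighted ratio, at 1.63 in concentrate (1.41 to 1.87), 1.54 in hay (0.926 to 2.55) and 1.30 with milk only (1.18 to 1.43). Without weighting, the fibroblast sum was not higher in positive cells of 2 libraries. It was 27.8 against 28.8 CPM in negative cells with concentrate and 167.1 against 169.6 CPM with milk only. With hay it was 5.60 against 4.18 CPM. The part of these markers in the PTHLH values was not tested.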

How the data were processed

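Droplet single-cell RNA libraries of rumen epithelium, 1 per diet, were used as the authors' deposited matrices of raw UMI counts per gene and barcode. They were made with Cell Ranger, version 3.1 per the labels' protocols and 5.0.0 per the file headers. Genome build: not given in the sources used here; the same holds for the barcode selection rule. The lowest UMI count of a barcode was 1047 with concentrate, 2263 with hay and 727 with milk only, so selection was not at equal depth.

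From these counts, barcodes showing 500 genes or more, with less than 20% of their UMIs in the 13 mitochondrial genes, were kept (53.1%, 73.7% and 54.7% of barcodes). After scaling each cell to 10000 UMIs, 2000 variable genes, 30 principal components and 15 neighbours gave Leiden clusters at resolution 0.6, without integration (scanpy 1.11.5, leidenalg 0.10.2). Doublets were not removed. Clusters were named where at least 3 markers of a list had 20 CPM and a 2-fold excess; cluster 8, where neutrophil markers of the S100 family had the highest fold, was named by the markers among its 10 leading genes, a rule chosen after seeing the data. Clusters with no name were counted as keratinocytes. Cluster 9, with a median of 673.5 genes and 0.475% mitochondrial UMIs, is one by this default only. The neutrophil list summed to 249, 92.1 and 3870 CPM in concentrate, hay and milk-only keratinocytes through S100A8, S100A9 and S100A12.

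PTHLH UMIs were summed over the keratinocytes of a library. The unit of comparison is the library, so no test between diets was possible; levels have exact Poisson, shares exact Clopper-Pearson and ratios exact conditional binomial intervals at 95%, for counting error only, and where no UMI was found the limit was set at 3 counts. Positive cells had at least 1 PTHLH UMI, negative cells were weighted in 10 depth bins, and PTHLH was left out of totals. The weighting was run on simulated data with planted 2-fold changes. Gene shares there were the same at every depth and in every cluster. It could therefore not show whether the weighting removes effects of depth or cluster. Genes named were PTHLH, genes of the lists, those with the highest and lowest ratios at 50 CPM and those most correlated with PTHLH; the genes ranked above PTHLH and its neighbours were added. The gene, its lists and the rules were chosen with earlier results of these data known. Scripts ran in Python 3.11.15 with pandas 2.3.3, scipy 1.17.1 and numpy 2.4.6.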

Additional observations from a re-analysis of the deposited data

Results flagged for a closer look

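PTHLH UMIs were also counted in the barcodes that failed the limits on genes or mitochondrial share, which the comparisons do not use. Their PTHLH level was 21.6 CPM with concentrate (326 UMIs), 4.73 CPM with hay (55 UMIs) and 0.648 CPM with milk only (8 UMIs). The concentrate and hay values are listed because they lay above the milk-only level. The order of the libraries was that seen in the kept keratinocytes, with a ratio of 33.4 for concentrate over milk only, 4.58 for concentrate over hay and 7.29 for hay over milk only. No group had the 4 samples that a search for outlying samples needs.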

How the results depend on the processing

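With 1 library per diet no value has a replicate check. No alternative reversed the direction of a PTHLH ratio between diets. Of the alternatives for the log2 ratios 32 moved less than the counting interval of the ratio and 7 moved more. Concentrate over milk only was 4.23 without the differentiated clusters and 3.90 in cluster 2 alone. Hay over milk only was 1.89 and 1.65 in the same settings. Without its highest cell of each library, cluster 2 gave 4.53 and 2.26. Concentrate over hay was 2.43 with a mitochondrial maximum of 10%, 2.11 with median-of-ratios scaling and 2.13 as a mean of the per-cell CPM. The share of positive concentrate cells was 35.8% with 1000 genes per cell, 38.1% with the 10% maximum, 29.1% without cycling clusters, 24.2% and 10.8% thinned to 5000 and 2000 UMIs, and 14.7% where 2 UMIs were required. The hay share was 11.1%, 10.9%, 7.90%, 7.64%, 2.65% and 1.39% in the same settings. The milk-only share was 4.95% with 1000 genes, 5.26% without differentiated clusters, 1.81% and 0.660% thinned, and 0.412% with 2 UMIs. The number of genes at least 1.5-fold higher in positive cells depended most on the processing. In concentrate, hay and milk only it was 114, 620 and 1154 where 2 UMIs were required, 13, 10 and 94 with weighting by depth and cluster (against 31, 53 and 318 by depth, so the order of concentrate and hay turned), 1691, 1718 and 2714 with no filter on low levels, and 5, 18 and 160 at 50 CPM. It was 86 in hay with no weighting, and 17 in concentrate and 128 with milk only without the differentiated clusters. The sets with 2 UMIs held 687 concentrate, 97 hay and 14 milk-only cells, so their gene counts cannot be compared between libraries. Leaving out the highest cell of each library, the barcodes that libraries share, or all cell filters, and taking cluster 2 alone, with or without its highest cells, were chosen after seeing the data. No paired analysis was possible because each diet has 1 library and the labels give no replicate numbers.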
